A study of Arabidopsis thaliana with 12 samples.

Results

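The effect of Pep1 was measured over both genotypes together, as 6 libraries of Arabidopsis thaliana seedlings treated with the peptide against 6 treated with water. Genotype was a covariate, so each seedling library was judged against its own genotype. The comparison used all 12 of the 12 libraries, and groups of 6 allow smaller changes to be told from the spread than the 3 against 3 of a single genotype.

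AtPep1 is a short peptide cut from a precursor protein when plant cells are damaged or attacked, and the receptor kinases PEPR1 and PEPR2 perceive it at the cell surface. As with patterns from microbes, perception is followed by a burst of reactive oxygen, MAP kinase activity, jasmonate and ethylene signalling and the synthesis of defence proteins and metabolites. Continued exposure of seedlings to such peptides is known to slow growth.

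RNA came from whole seedlings of the accession Columbia 0, either wild type or irr, which some labels call rrm. IRR is known as an immunoregulatory protein that binds RNA, and the labels name no allele. About 15 seedlings, 7 to 10 days old, shared a well of liquid medium, and 3 h after transfer they received 1 µM AtPep1 or water for 24 h in constant light. The controls carry the label untreated but were given water according to the protocol, and are named for it here. The 4 groups of wild type with water, wild type with Pep1, irr with water and irr with Pep1 held 3 libraries each. The labels do not say whether replicates came from separate wells, cultures or days, and p-values therefore cover the spread among these libraries only, part of which may be technical.

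AT3G23900, the locus known for IRR, stood at 10.7, 12.2 and 14.6 FPKM with water (lowest, median and highest of 6 libraries) and at 10.7, 11.2 and 12.7 FPKM with Pep1. It did not pass the test for Pep1 (log2 difference -0.10 ± 0.08, limma adjusted p = 0.399), and its level overlapped between the libraries labelled wild type and irr, so it does not check the genotype labels. FPKM counts fragments per kilobase of gene, scaled to the library's depth. Depth, worked out from whole-number steps in the FPKM of low genes, lay between 17.4 and 28.6 M counted units for 11 libraries (M for 1e+06), and irr water replicate 3 reached 56.5 M. Whether a unit is a read or a read pair is not known, and some of these totals exceed the 20 M raw reads that the labels state per sample. In that library chloroplast-encoded genes took 11.1% of the summed FPKM, against 2.89% to 5.47% in the others. The third irr Pep1 library also stood apart, in that its defence genes lay closer to the water libraries. These are bulk samples, so fewer cells of a type and less RNA per cell cannot be told apart in any result below.

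Pep1 changed 2131 of the 18177 genes tested, or 11.7%, at a limma adjusted p under 0.05. Of these, 1116 rose (6.14% of genes tested) and 1015 fell (5.58%). All 2131 had the same sign in wild type and in irr, as did 12470 of all genes tested. The joint test favours genes that moved the same way in both genotypes, so this follows largely from the selection. The changes were mostly small. A total of 1906 called genes moved by less than 1 on the log2(FPKM + 1) scale and 1191 moved by less than 0.5. At 1 or above there were 175 rises and 50 falls, so the larger changes were mainly rises, while 941 rises and 965 falls lay under 1. When every library was given the same median, the split moved to 972 rises and 1433 falls, or 40.4% rises against 52.4% as deposited, so the balance between directions depends on the scaling. Leaving out irr Pep1 replicate 3 gave 1865 rises and 1069 falls, and leaving out irr water replicate 2 gave 636 and 542. A core of 1047 called genes, 530 rises and 517 falls, passed in each of the 12 fits that left out 1 library.

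**Figure D1:**
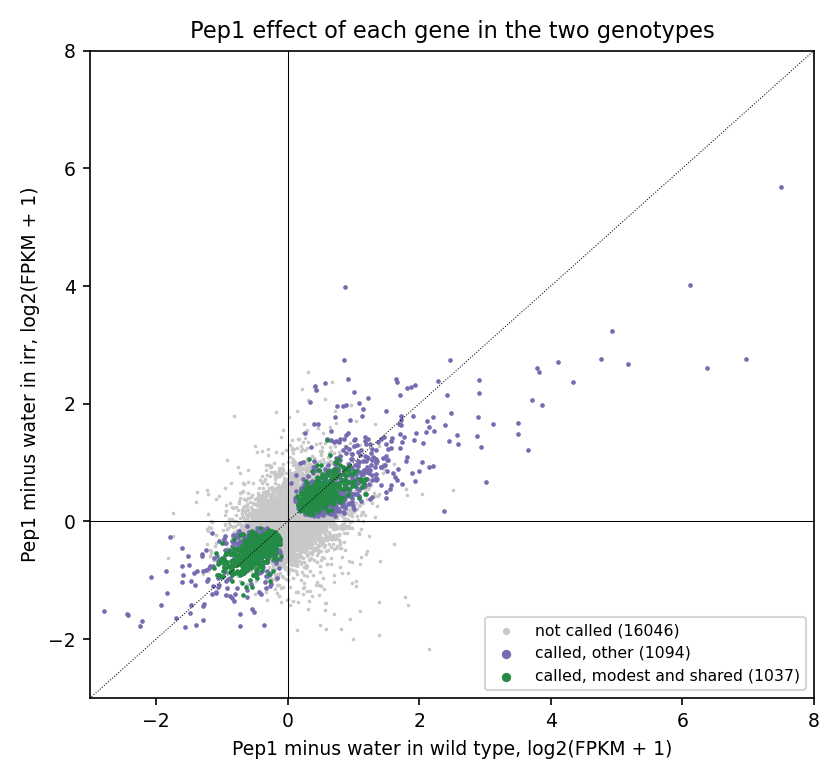
Each point is 1 of the 18177 genes tested, placed by its difference between Pep1 and water in wild type (horizontal axis) and in irr (vertical axis), both in log2(FPKM + 1), with the diagonal dotted. The 1037 called genes that were modest and shared (green) lie close to the origin, where both effects have the same sign, and the other called genes (purple) reach furthest along the diagonal and below it.

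The further calls of the joint comparison lay mainly in the small changes. Wild type alone gave 630 called genes (3.47% of those tested) and irr alone 362 (1.99%), and 146 genes were in both lists. These contrasts use the same libraries as the joint comparison, so overlaps between them are a description. Both also take the spread of a gene from all 12 libraries. A call within 1 genotype therefore depends in part on the spread in the other. The joint comparison held 1447 genes, 7.96% of those tested, that were called in neither genotype alone, 759 of them rises and 688 falls, and 1363 of them moved by less than 1. The median standard error of a gene was 0.10 over both genotypes and 0.15 within either genotype. With the spread pooled, this difference follows largely from the group sizes. The median SD of a gene among replicates was 0.14 with water and 0.12 with Pep1 in wild type. In irr it was 0.16 and 0.19. The smallest called change was 0.18 in the joint comparison, 0.31 in wild type and 0.33 in irr. Between 0.25 and 0.5 the joint comparison called 1076 genes, against 123 in wild type and 60 in irr. From 2 upward it called 38 genes, against 41 and 18. The adjustment sets a different cutoff on the unadjusted p in each comparison, so these counts do not reflect group size alone. At an unadjusted limma p under 0.05 there were 5234 genes in the joint comparison, 3797 in wild type and 3315 in irr.

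**Figure D2:**
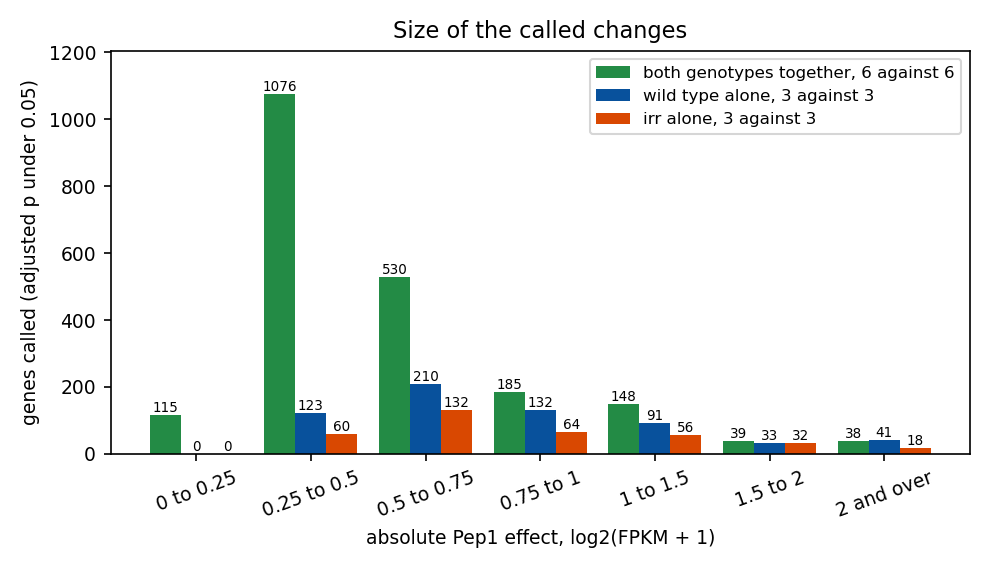
Bars count the genes called at an adjusted p under 0.05 in classes of absolute Pep1 effect, in log2(FPKM + 1), for both genotypes together (6 against 6 libraries, green), wild type alone (blue) and irr alone (orange, 3 against 3 each). The calls within a genotype take the spread of a gene from both genotypes. The class from 0.25 to 0.5 holds 1076 genes over both genotypes, 123 in wild type and 60 in irr, while the class from 2 upward holds 38, 41 and 18.

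The smallest called rise shows what these groups resolve. CYSB [AT3G12490], a cystatin that inhibits cysteine proteases, stood at 78.2, 82.3 and 87.0 FPKM with water (lowest, median and highest) and at 86.5, 94.8 and 99.97 FPKM with Pep1. It rose by 0.19 ± 0.06 (limma adjusted p = 0.0484), and the lowest Pep1 library lay just below the highest water library.

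A change was counted as modest and shared when the gene was called, moved by less than 1, and had its 3 Pep1 libraries clear of its 3 water libraries on the same side in each genotype. Whatever the size and the test, 632 genes (3.48%) had Pep1 above water without overlap in both genotypes and 728 (4.01%) had it below, of which 528 and 639 were called. Over 6 against 6 libraries regardless of genotype, 325 genes (1.79%) lay above without overlap and 391 (2.15%) below. The modest shared definition held for 433 rises (2.38% of genes tested) and 604 falls (3.32%). The rises had a median of 0.43 with quartiles of 0.32 and 0.59, and the falls a median of -0.45 with quartiles of -0.58 and -0.35. The modest shared rises reached up to 0.99 and the falls down to -0.99. Of these 1037 genes, 674 were called in neither genotype alone, and 685 passed in each of the 12 fits without 1 library.

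The modest shared rises with the smallest p-values included enzymes, transporters and transcription factors. SRG3 [AT3G02040], a glycerophosphodiester phosphodiesterase that rises in senescence, lay at 6.72, 8.19 and 10.3 FPKM with water and at 14.1, 16 and 16.5 FPKM with Pep1. It rose by 0.84 ± 0.08 (limma adjusted p = 0.000447), and the 6 Pep1 libraries lay above all 6 water libraries. MPL1 [AT5G14180], a lipase known from the response to aphids, went from 35.1, 45 and 50.7 FPKM to 73.6, 83 and 92 FPKM. It rose by 0.89 ± 0.09 (adjusted p = 0.000447) with no overlap. Transporters were among these rises. NRT1.7 [AT1G69870], which loads nitrate into the phloem of older leaves, went from 7.14, 8.36 and 10.7 FPKM to 12.9, 16.8 and 19 FPKM, a rise of 0.88 ± 0.10. GTR2 [AT5G62680], a carrier of glucosinolates, went from 14.6, 16.9 and 25 FPKM to 31.8, 36.5 and 43.1 FPKM, a rise of 0.95 ± 0.12. Both kept the Pep1 libraries above every water library (adjusted p = 0.000636 and 0.000753).

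Other modest rises were in abundant or regulatory genes. AILP1 [AT5G19140], related to a protein first found under aluminium stress, stood at 222, 262 and 309 FPKM with water and at 379.6, 431 and 453 FPKM with Pep1, a rise of 0.71 ± 0.08. AT3G13310, a protein with a DnaJ chaperone domain, went from 38.1, 44.7 and 51.3 FPKM to 67.2, 79.1 and 84.2 FPKM and rose by 0.77 ± 0.08. MYB88 [AT2G02820], a transcription factor of the stomatal lineage, went from 5.03, 6.56 and 7.69 FPKM to 8.79, 12.9 and 14.1 FPKM and rose by 0.85 ± 0.09. In all 3 genes the lowest Pep1 library exceeded the highest water library (limma adjusted p = 0.000461, 0.000447 and 0.000447). DAG1 [AT3G61850], a Dof transcription factor known from seed germination, rose by 0.75 ± 0.10, and EXL4 [AT5G09440], of the exordium family of extracellular proteins, by 0.83 ± 0.11.

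Among modest shared falls, ribosomal proteins, a tubulin and a photosystem protein had the smallest p-values. TUB4 [AT5G44340], a beta-tubulin, lay at 236, 248 and 266 FPKM with water and at 148, 158 and 175 FPKM with Pep1. It fell by 0.63 ± 0.06 on the log2 scale (limma adjusted p = 0.000447), with a wide gap between the groups. PSB28 [AT4G28660], which takes part in the assembly of photosystem II, went from 34.3, 39.5 and 49.2 FPKM to 19.7, 22.4 and 26.7 FPKM (-0.81 ± 0.10, adjusted p = 0.000636). AT1G66430, a sugar kinase of the pfkB family, went from 19.1, 23.4 and 26.3 FPKM to 12.4, 14.4 and 14.5 FPKM (-0.67 ± 0.08). Neither gene overlapped between treatments. AT3G06130, which carries a heavy-metal-associated domain, fell the most of these 10 genes, from 12.9, 18.3 and 22.4 FPKM to 7.21, 9.92 and 11.2 FPKM (-0.87 ± 0.09).

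**Figure D3:**
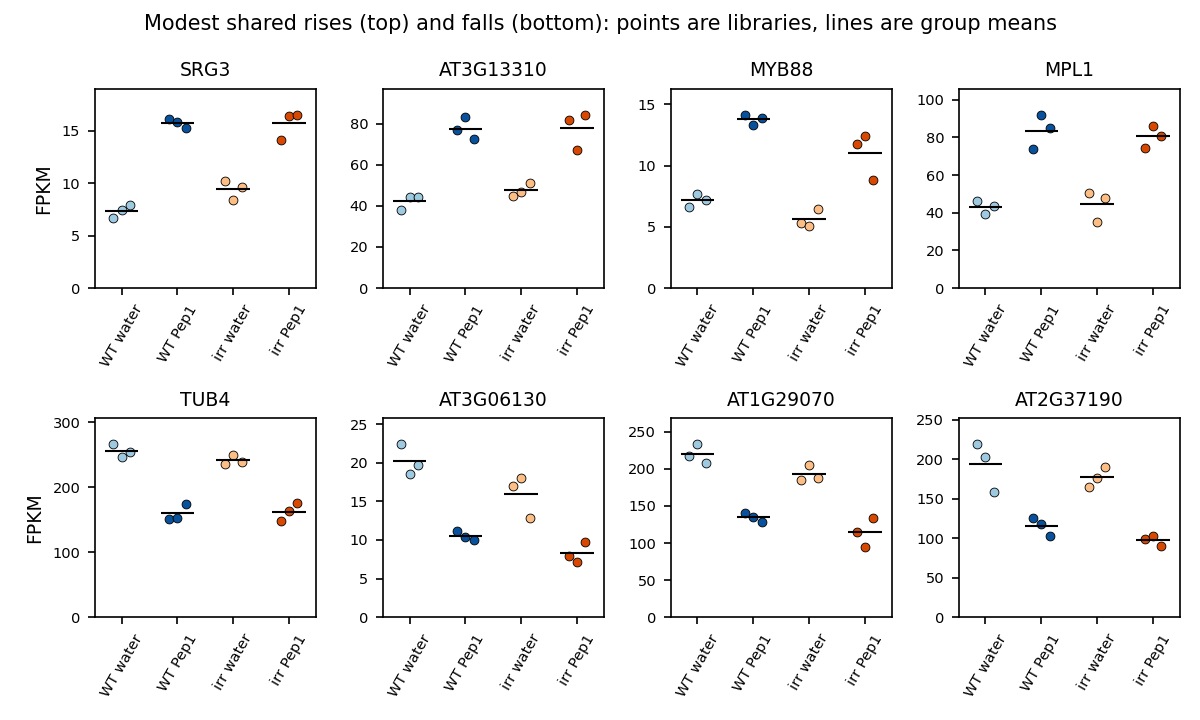
FPKM of the 4 modest shared rises (top) and the 4 modest shared falls (bottom) with the smallest p-values, as points for the 12 libraries in the 4 groups, with lines at group means and each vertical axis starting at 0. In each panel the Pep1 libraries of a genotype lie on 1 side of its water libraries, as with TUB4 at 236 to 266 FPKM with water and 148 to 175 FPKM with Pep1.

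Many genes were called only when the genotypes were joined. From 506 such genes that were modest, shared and averaged 5 FPKM or more, the examples given here were chosen after their values were seen. CRK19 [AT4G23270], a cysteine-rich receptor-like kinase, stood at 25.6, 34.3 and 39.2 FPKM with water and at 46.7, 52.6 and 71.3 FPKM with Pep1, without overlap. It rose by 0.69 ± 0.12 over both genotypes (limma adjusted p = 0.00401). The effects in wild type and irr were 0.66 and 0.73, at limma adjusted p = 0.0598 and 0.0553. Both tests within a genotype took the spread from all 12 libraries. SEX1 [AT1G10760], a glucan, water dikinase needed for starch breakdown, went from 35.2, 51.5 and 72.4 FPKM to 55.4, 75.5 and 99.6 FPKM (0.58 ± 0.10), where the pooled ranges overlap but those within each genotype do not. TCP20 [AT3G27010], a growth regulator of the TCP family, rose by 0.42 ± 0.08. Among the falls, BETA-OHASE 1 [AT4G25700], a beta-carotene hydroxylase, went from 34.3, 39.2 and 42 FPKM to 19.96, 26.3 and 30.7 FPKM without overlap (-0.54 ± 0.09, adjusted p = 0.00480). OVA4 [AT2G25840], a tryptophanyl-tRNA synthetase, fell by 0.55 ± 0.09 on the log2 scale. These 5 genes passed in each of the 12 fits without 1 library.

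The differences between genotypes in the Pep1 effect gave 0 calls by limma over the 18177 genes, with 1219 genes at an unadjusted p under 0.05. Of the 2131 genes called in the joint comparison 164 were among those 1219, and of the 1037 modest shared genes 39. The modest shared genes were chosen for moving the same way in both genotypes, so few of them could show a difference. A difference that misses the threshold does not show that the genotypes respond alike.

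The share of called genes varied with expression. Of the 2539 genes with a mean under 2 FPKM, 4.1% rose and 4.41% fell, and from 2 to 5 FPKM 3.91% rose and 3.97% fell. From 5 to 20 FPKM 5.97% rose and 4.47% fell, and from 20 to 100 FPKM 8.52% rose and 7.14% fell. Of the 1044 genes at 100 FPKM or more, 9.77% rose and 14.8% fell, so rises were the larger share from 5 to 100 FPKM and falls at 100 FPKM or more. That top class held 102 rises and 154 falls, and 69 of these falls were among its 106 genes with a product named a ribosomal protein. The larger share of falls there thus rests largely on 1 gene family. The values are on a scale with a pseudocount of 1, which shrinks changes of low genes.

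The largest changes were in secreted defence proteins. Of 17 tested genes in the list of antimicrobial proteins, 9 rose (52.9%) and 2 fell (11.8%). The list median was 1.05 against 0.02 over all genes tested. This and the other gene lists were chosen with earlier results of these data known. Their shares beside all genes are therefore a description. The entries of this list also include TI1, RNS1, AED1 and WAKL10, so its label is loose. Over all genes tested 6.14% rose and 5.58% fell. PDF1.2b [AT2G26020] encodes a small secreted defensin and went from 0.210, 0.409 and 7.04 FPKM to 63.3, 204 and 561 FPKM (6.595 ± 0.55, limma adjusted p = 0.000219). The related PDF1.2 [AT5G44420] and PDF1.2c [AT5G44430] rose by 5.06 ± 0.69 and 3.41 ± 0.66, and the division of reads among these close copies is uncertain. Both were listed at 0 in some water libraries, so the sizes of these 2 rises depend on the pseudocount. HCHIB [AT3G12500], a basic chitinase, went from 1.02, 5.65 and 13.4 FPKM to 19.1, 30.1 and 57 FPKM (2.34 ± 0.32). PR4 [AT3G04720], a chitin-binding protein, went from 40.4, 82.4 and 232 FPKM to 279, 379.9 and 628 FPKM (2.17 ± 0.28), and OSM34 [AT4G11650], an osmotin-like protein, from 46.7, 121 and 264 FPKM to 369, 510.3 and 690.3 FPKM (2.099 ± 0.30). The Pep1 libraries lay above all water libraries in each of these 6 genes. AT4G33720, from the CAP family of secreted proteins that holds PR1, went from 1.1, 17.8 and 30.1 FPKM to 42.6, 372 and 570.3 FPKM (4.49 ± 0.74). Of the 11 called list members, 8 passed in each fit without 1 library. The 2 falls did not: THI2.2 [AT5G36910], a thionin, at -0.79 lost its call in 9 of the 12 fits, up to an adjusted p of 0.104 without irr water replicate 2, and LCR68 [AT2G02130], of the defensin group, at -0.26 in 7, up to 0.0811 without wild type Pep1 replicate 2.

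Signalling genes upstream of these proteins moved less. Of 29 tested genes of pattern perception and early signalling, 5 rose (17.2%, beside 6.14% over all genes tested) and 0 fell. At an unadjusted limma p under 0.05 these counts were 13 and 0. Of the 29 genes, 27 lay above 0, as did 54.1% of all genes tested, and the median was 0.31. RBOHD [AT5G47910], the oxidase that makes the reactive oxygen burst, went from 5.23, 7.11 and 13.7 FPKM to 10.8, 12 and 43.6 FPKM (1.01 ± 0.24, limma adjusted p = 0.0186), with overlap between treatments. MPK3 [AT3G45640], a MAP kinase of immunity, rose by 0.67 ± 0.14. PUB25 [AT3G19380], a ubiquitin ligase that acts on the receptor-associated kinase BIK1, went from 6.1, 6.62 and 7.1 FPKM to 7.89, 9.46 and 11 FPKM without overlap, a modest shared rise of 0.45 ± 0.07 (adjusted p = 0.00176). Of the 7 tested Pep precursors and receptors, PROPEP1 [AT5G64900] rose by 0.85 ± 0.23 and PROPEP4 [AT5G09980] fell by 0.59 ± 0.15 on the log2 scale. These calls were lost in 6 and 4 of the 12 fits, with adjusted p-values up to 0.0642 without irr water replicate 2 and 0.0685 without irr water replicate 2. Among 17 pattern-induced markers 1 rose (5.88%), the membrane protein YLS9 [AT2G35980], also known as NHL10, at 2.04 ± 0.39. However, 10 had an unadjusted limma p under 0.05 and the list median was 0.53. Without irr Pep1 replicate 3 the markers had 9 rises, and without irr water replicate 3 or with library quality weights they had 7. The perception genes had 13 rises without irr Pep1 replicate 3, and 3 without wild type water replicate 1.

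Hormone lists differed in their share of calls. Of 13 jasmonate synthesis genes, 4 rose, or 30.8% beside 6.14% over all genes, and all 13 lay above 0, beside 54.1% of all genes. The list had 7 rises without irr Pep1 replicate 3 and 2 without wild type water replicate 1. AOC2 [AT3G25770], an allene oxide cyclase with close copies that may share its reads, went from 22.2, 24.6 and 36.8 FPKM to 31, 44.9 and 49.1 FPKM (0.63 ± 0.15, limma adjusted p = 0.0175), and OPCL1 [AT1G20510], a ligase of the pathway, rose by 0.71 ± 0.17. Of 19 jasmonate response genes 2 rose (10.5%). Among them CYP94B3 [AT3G48520], which oxidises the active hormone, went from 1.57, 2.07 and 3.79 FPKM to 3.32, 5.47 and 6.43 FPKM (0.92 ± 0.17). The response list had 4 rises without irr Pep1 replicate 3 and 1 in each fit without any other library but irr water replicate 3, and 1 of its 2 calls held in each fit. Of 22 ethylene genes 4 rose (18.2%), with 8 rises without irr Pep1 replicate 3 and 1 without wild type water replicate 1. ORA59 [AT1G06160], a transcription factor that joins both hormone signals, went from 2.1, 4.76 and 10.5 FPKM to 20.07, 31.7 and 34.4 FPKM without overlap (2.39 ± 0.25, adjusted p = 0.000447), and it was the 1 of the 4 that passed in each fit without 1 library. Salicylic acid genes gave 0 calls by limma among 15 tested, with 5 rises and 0 falls at an unadjusted p under 0.05 and a median of 0.28. Without irr Pep1 replicate 3 the salicylic acid list had 5 rises, without irr water replicate 3 it had 2, and with library quality weights 4. Auxin, abscisic acid and clock genes gave 2, 1 and 1 rises among 24, 27 and 21 tested, or 8.33%, 3.70% and 4.76% beside 6.14% over all genes, and none of those calls held in all 12 fits without 1 library.

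Genes for defence metabolites differed by class. In the list for camalexin and indole glucosinolates, defence compounds made from tryptophan, 11 of 20 tested genes rose (55%). In this list 0 fell (0 also at an unadjusted p under 0.05), beside 6.14% rises and 5.58% falls over all genes tested. All 20 lay above 0, beside 54.1% of all genes, with a median of 1.095. PAD3 [AT3G26830], the enzyme of the last step to camalexin, went from 0.0421, 0.212 and 0.760 FPKM to 3.16, 6.11 and 14 FPKM without overlap (2.61 ± 0.27, limma adjusted p = 0.000447). CYP79B2 [AT4G39950], which starts both branches from tryptophan, went from 2.37, 4.36 and 35.4 FPKM to 7.86, 27.6 and 270.1 FPKM (2.03 ± 0.46), and its relative CYP79B3 [AT2G22330] rose by 1.34 ± 0.26. Their ranges overlapped between treatments, and the highest value of each was an irr Pep1 library. IGMT1 [AT1G21100], a methyltransferase of indole glucosinolates, went from 37.7, 62.9 and 85 FPKM to 85.2, 110.1 and 267 FPKM without overlap (1.19 ± 0.22). None of the 11 rises was modest and shared. The list's median difference from the water mean of the genotype ran from 0.58 to 1.07 in wild-type Pep1 libraries, and was 1.18, 2.24 and 0.13 in the irr Pep1 libraries, replicate 3 being the lowest. Of the 11 calls, 6 held in each fit without 1 library. Without irr Pep1 replicate 3 the list had 18 rises and a median of 1.34, without irr Pep1 replicate 2 it had 7 and 0.82, and without wild type water replicate 1 it had 6 rises. Among 13 genes for aliphatic glucosinolates, made from methionine, 1 rose and 1 fell (7.69% each), with a median of -0.13. Neither call held in each fit.

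Phenylpropanoid and lignin genes, which make precursors of wall polymers, showed 11 rises among 22 tested (50%, beside 6.14% over all genes tested). There were 0 falls (0 also at an unadjusted p under 0.05), and the median was 0.62. PAL4 [AT3G10340], a phenylalanine ammonia-lyase at the entry of the pathway, went from 2.65, 2.87 and 5.17 FPKM to 5.03, 9.89 and 12.6 FPKM (1.303 ± 0.20, limma adjusted p = 0.00216). DIR6 [AT4G23690], a dirigent protein that guides the coupling of monolignols, went from 2.88, 5.16 and 8.4 FPKM to 8.95, 26.3 and 36.1 FPKM without overlap (2.01 ± 0.30). MYB63 [AT1G79180], a regulator of lignin genes, rose by 1.18 ± 0.19 from at most 0.586 FPKM in any water library. The 4 members that held in each fit without 1 library were these and DIR5 [AT1G64160], at 3.76 ± 0.46. The other 7 calls rested on fewer fits, the list having 4 rises without wild type water replicate 1, and the third irr Pep1 library had a list median of -0.14 against 0.61 and 1.19 in its 2 replicates.

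Class III peroxidases, secreted enzymes that can cross-link lignin, were grouped by product name after the data were seen. Of 49 tested, 22 rose (44.9%) and 1 fell (2.04%), beside 6.14% and 5.58% over all genes tested. The median was 0.55, and 16 of the 23 calls held in each fit without 1 library. Prx37 [AT4G08770] went from 1.88, 3.86 and 18.2 FPKM to 32.1, 98.5 and 242 FPKM (4.09 ± 0.48, limma adjusted p = 0.000636), and PRX52 [AT5G05340] rose by 3.92 ± 0.58. Modest rises occurred in abundant members. PRXR1 [AT4G21960] ran from 217 to 386 FPKM with water and from 381 to 615 FPKM with Pep1 and rose by 0.83. The division of reads among near-identical peroxidases is uncertain.

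**Figure D4:**
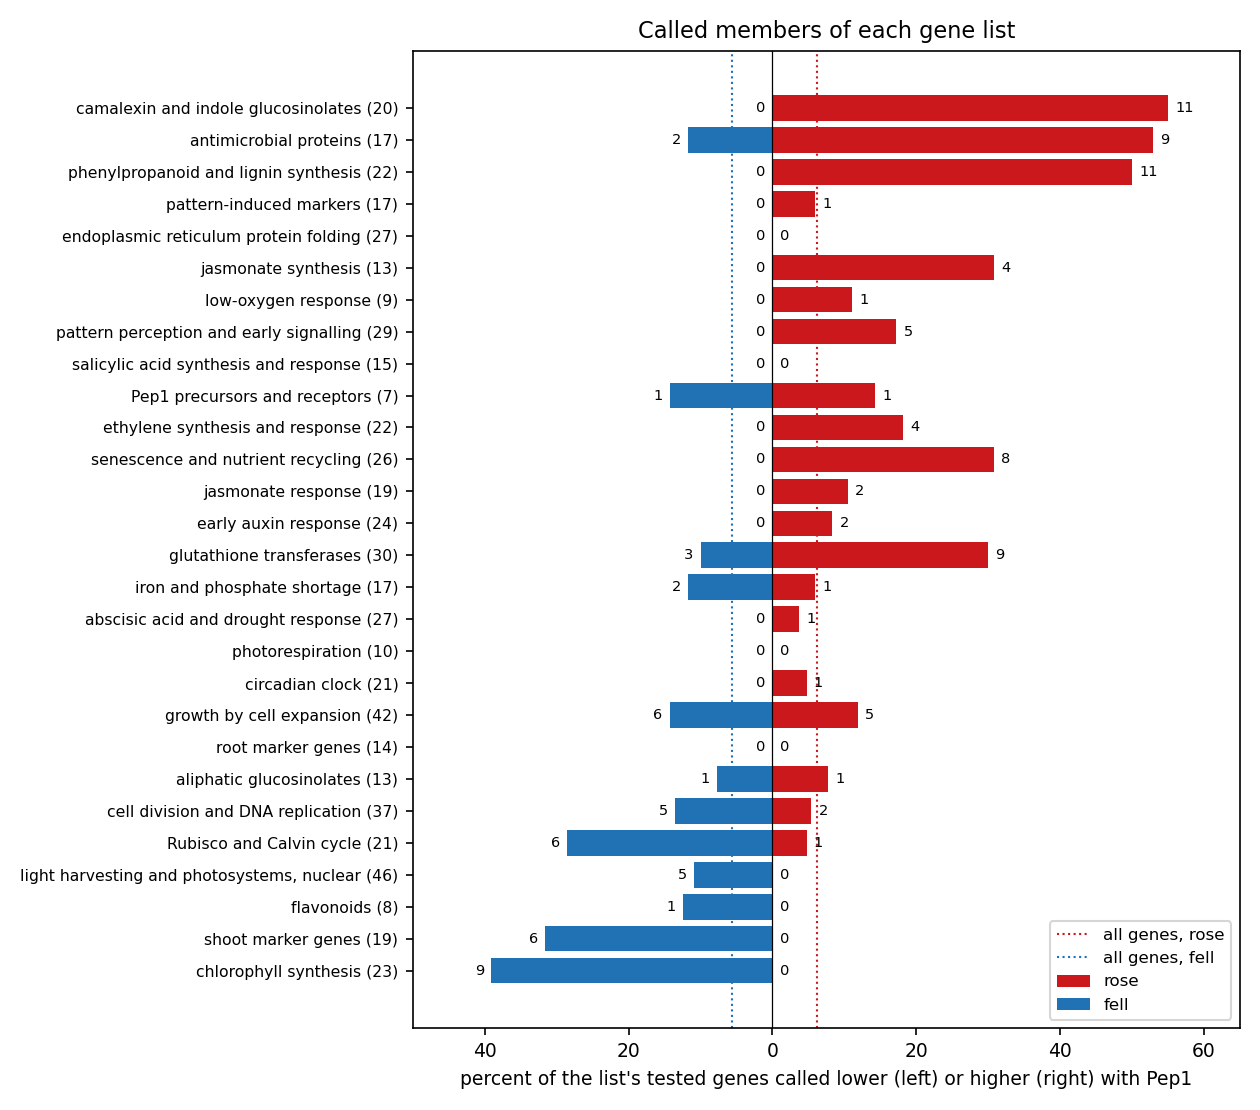
For each gene list with at least 5 genes tested, bars give the percent of its tested genes that rose (right, red) or fell (left, blue) with Pep1 at an adjusted p under 0.05, with the number of genes at the bar ends and the number tested in brackets. Dotted lines mark all genes tested, at 6.14% and 5.58%. Camalexin, antimicrobial and phenylpropanoid genes reach furthest to the right, and chlorophyll synthesis and shoot marker genes furthest to the left.

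Glutathione transferases, which conjugate toxic compounds, moved in both directions. Of 30 tested, 9 rose (30%) and 3 fell (10%), beside 6.14% and 5.58% over all genes tested, and the list median was 0.10. GSTF2 [AT4G02520] went from 218, 377 and 1145 FPKM to 649, 894 and 2201 FPKM (1.28 ± 0.30, limma adjusted p = 0.0173), with overlap between treatments. Reads may be divided uncertainly between GSTF2 and its close copy GSTF3. GSTU4 [AT2G29460] rose by 1.67 ± 0.36 and GSTU12 [AT1G69920] by 1.998 ± 0.43. The falls included GSTU22 [AT1G78340], from 3.35, 3.86 and 6.88 FPKM to 1.61, 2.31 and 2.73 FPKM without overlap (-0.69 ± 0.13), and GSTU5 [AT2G29450], from 82.8, 105 and 109.6 FPKM to 62.4, 80.7 and 84.3 FPKM (-0.34 ± 0.08). Both falls were modest and shared. Of the 12 calls, 6 held in each fit without 1 library, and without wild type Pep1 replicate 1 or irr water replicate 2 the list had 4 rises.

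Of 26 genes for senescence and nutrient recycling, 8 rose (30.8%, beside 6.14% over all genes tested). In this list 0 fell (0 also at an unadjusted p under 0.05), and the median was 0.26. ACD1 [AT3G44880], the pheophorbide a oxygenase of chlorophyll breakdown, went from 27.4, 33.2 and 48.3 FPKM to 39.7, 45.5 and 65.3 FPKM, a modest shared rise of 0.42 ± 0.09 (limma adjusted p = 0.0106). WRKY45 [AT3G01970], a transcription factor that promotes leaf senescence, went from 12.8, 28.1 and 70.8 FPKM to 39.1, 60.5 and 135 FPKM (1.18 ± 0.23), and WRKY75 [AT5G13080] rose by 1.21 ± 0.28. GTR2 was entered in this list too, although it is described above as a carrier of glucosinolates. The wall enzyme XTH24 [AT4G30270], at 0.56 ± 0.11, is also a member. These 5 genes were the members that held in each fit without 1 library, and the list had 5 rises without irr water replicate 2.

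Falls were spread over genes for protein synthesis, growth and photosynthesis. A grouping made after the data were seen held 308 tested genes whose product is named a ribosomal protein. Of these genes, 102 fell (33.1%, beside 5.58% over all genes tested) and 1 rose, and 277 lay below 0. Their median was -0.27, at -0.28 in wild type and -0.23 in irr. All 102 falls were under 1 in size, and 82 of them were modest and shared. Over all genes tested 3.32% were modest shared falls. Of the 102 falls, 63 were called in neither genotype alone. Wild type alone called 27 genes of the group and irr alone 30. The group held proteins of cytosolic and of plastid ribosomes. AT2G37190, of the L11 family, went from 158, 183 and 219 FPKM to 90.6, 103 and 125 FPKM (-0.79 ± 0.09, limma adjusted p = 0.000447), and AT3G02560, of the S7e family, from 107, 119.9 and 135 FPKM to 64.3, 72.5 and 87.9 FPKM (-0.70 ± 0.08). Neither overlapped between treatments.

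The falls of plastid ribosomal proteins given here were chosen after their values were seen. PSRP4 [AT2G38140], a plastid-specific ribosomal protein, lay at 184, 223 and 261 FPKM with water and at 115, 162 and 173 FPKM with Pep1. It fell by 0.52 ± 0.09 on the log2 scale (limma adjusted p = 0.00345) without overlap. PSRP5 [AT3G56910] fell by 0.45 ± 0.08 (adjusted p = 0.00646). The summed share of FPKM taken by the 308 genes was 3.59% to 4.70% in wild type with water and 3.07% to 3.44% with Pep1, and 3.26% to 3.81% and 2.70% to 3.08% in irr. The 2 treatments did not overlap within either genotype. Over the alternatives without a left-out library, 68 to 151 ribosomal genes fell, and over the fits without 1 library 70 to 119. Ribosomal genes are abundant: 106 of the 308 had a mean of at least 100 FPKM and 69 of these fell, and many have close copies among which the division of reads is uncertain.

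**Figure D5:**
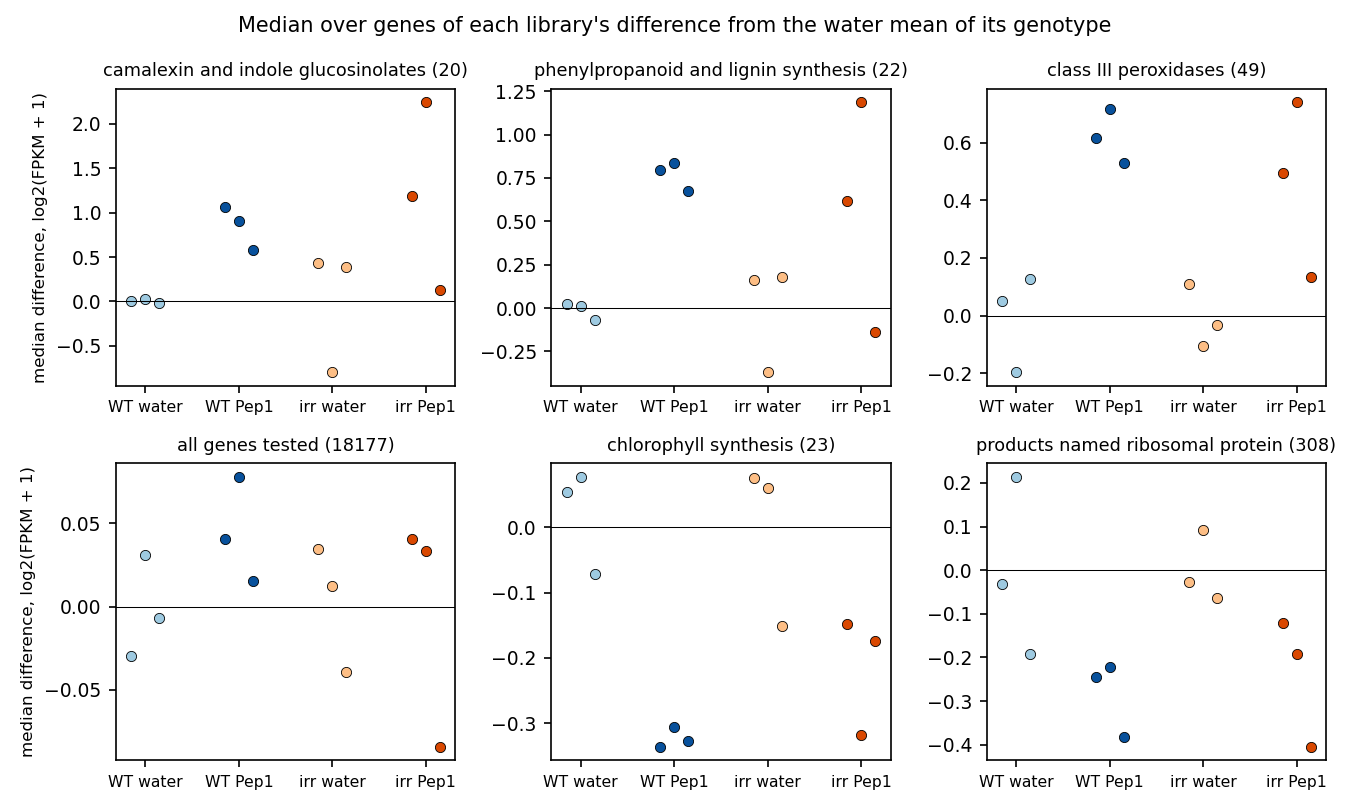
For 6 gene sets, each point is 1 library's median over the set's genes (number in brackets) of the difference from the mean of the water libraries of its genotype, in log2(FPKM + 1). Pep1 libraries lie above water in wild type and vary widely in irr for camalexin and phenylpropanoid genes, where irr Pep1 replicate 3 is at 0.13 and -0.14, and they lie below water in both genotypes for chlorophyll synthesis, apart from irr water replicate 3 at -0.15, and for ribosomal genes.

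Tubulins and cell division genes also held falls. Of 13 tubulin chains, grouped by product name after the data were seen, 5 fell (38.5%, beside 5.58% over all genes tested). In this group 0 rose (0 also at an unadjusted p under 0.05), and 12 lay below 0. Beside TUB4, TUB7 [AT2G29550] ran from 23.0 to 41.8 FPKM with water and from 14.8 to 22.5 FPKM with Pep1 and fell by 0.56 on the log2 scale (limma adjusted p = 0.00598). The division of reads among tubulin copies is uncertain. Tubulins had 3 falls without wild type water replicate 1, wild type Pep1 replicate 1 or 3, or irr water replicate 2. Of 37 genes for cell division and DNA replication, 5 fell (13.5%) and 2 rose (5.41%), beside 5.58% and 6.14% over all genes tested. The list's median was -0.18, and it was 0.09 when only genes that averaged 5 FPKM or more were tested. The list had 3 falls without wild type Pep1 replicate 3 or irr water replicate 2. CYCD3;2 [AT5G67260], a cyclin that promotes division in young leaves, went from 22.4, 27.7 and 37.3 FPKM to 15.6, 16.6 and 22.4 FPKM (-0.64 ± 0.12, adjusted p = 0.00638). AUR2 [AT2G25880], a mitotic kinase, went from 3.26, 4.29 and 4.76 FPKM to 2.05, 2.55 and 3.25 FPKM without overlap (-0.52 ± 0.11). CYCB1;3 [AT3G11520], a mitotic cyclin, went the other way, from 0.552, 0.734 and 1.1 FPKM to 0.867, 1.75 and 1.99 FPKM (0.53 ± 0.13).

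Genes of cell expansion, which loosen walls or move water, were divided, with 5 rises and 6 falls among 42 tested and a median of -0.11. These were 11.9% and 14.3% of the list, beside 6.14% and 5.58% over all genes tested. Without irr Pep1 replicate 3 there were 7 rises and 10 falls, without wild type water replicate 2 there were 3 and 4, and over all fits without 1 library 3 to 7 rises and 4 to 10 falls. XTH16 [AT3G23730], a wall-remodelling enzyme, went from 16.6, 19.7 and 26 FPKM to 6.58, 8.54 and 12.4 FPKM without overlap (-1.09 ± 0.15, limma adjusted p = 0.00123), and XTH9 [AT4G03210] fell by 1.26 ± 0.24 on the log2 scale. GAMMA-TIP [AT2G36830], an aquaporin of the vacuole, went from 132, 205 and 236 FPKM to 70.4, 137 and 156 FPKM (-0.72 ± 0.14). In contrast, PIP1A [AT3G61430], an aquaporin of the plasma membrane, went from 370.3, 426 and 483 FPKM to 567, 658 and 699 FPKM without overlap, a modest shared rise of 0.60 ± 0.09 (adjusted p = 0.00218). EXPA8 [AT2G40610], an expansin, rose by 1.13 ± 0.25, while EXPA5 [AT3G29030] fell by 0.93 ± 0.20 on the log2 scale. The largest fall among all genes tested was that of a wall enzyme, PME5 [AT5G47500], a pectin methylesterase, from 6.67, 13 and 22.7 FPKM to 0.843, 1.99 and 4.95 FPKM (-2.16 ± 0.30). Among 9 low-oxygen genes, whose summed FPKM overlapped between treatments in both genotypes, the transcription factor LBD41 [AT3G02550] rose by 0.56 ± 0.09.

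Of the 29 lists, chlorophyll synthesis had the highest share of modest shared falls. Of 23 tested genes 9 fell (39.1%, beside 5.58% over all genes tested), and 8 of them were modest and shared. Over all genes tested 3.32% were modest shared falls. In the list 0 rose (0 also at an unadjusted p under 0.05), and the median was -0.28. G4 [AT3G51820], chlorophyll synthase, went from 51, 64.5 and 79.9 FPKM to 37, 43.4 and 46.9 FPKM (-0.62 ± 0.08, limma adjusted p = 0.00116). HEME2 [AT2G40490], a decarboxylase of the shared tetrapyrrole path, went from 70.6, 75.6 and 88.7 FPKM to 47, 56.2 and 62.4 FPKM (-0.48 ± 0.07). CHLI1 [AT4G18480], a subunit of magnesium chelatase, went from 137, 168 and 193 FPKM to 115, 130.2 and 136 FPKM (-0.41 ± 0.08). In these 3 genes every Pep1 library lay below every water library. GUN4 [AT3G59400], which activates the chelatase, the second subunit gene CHLI2 [AT5G45930] and HEMC [AT5G08280] fell by 0.40 ± 0.09, 0.49 ± 0.08 and 0.33 ± 0.06, and these 6 genes held in each fit without 1 library. CRD1 [AT3G56940] lost its call only without irr water replicate 2, at an adjusted p of 0.0510.

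Other lists of photosynthesis held falls too. Of 46 nuclear genes for light harvesting and photosystems, 5 fell (10.9%, beside 5.58% over all genes tested) and 0 rose. At an unadjusted limma p under 0.05 there were 13 falls and 0 rises. The list median was -0.19, at -0.31 in wild type and -0.08 in irr. The list had 10 falls without irr Pep1 replicate 3 and 2 without irr water replicate 2. Its summed FPKM in irr Pep1 replicate 3 was 190496, above the 146519 to 171566 of the irr water libraries. NPQ4 [AT1G44575], the protein that senses excess light at photosystem II, went from 209, 288 and 334 FPKM to 139, 152 and 197 FPKM without overlap (-0.81 ± 0.12, limma adjusted p = 0.00183). Lhca6 [AT1G19150], a minor antenna protein, went from 18.9, 31 and 44.7 FPKM to 14.5, 18.4 and 27 FPKM (-0.66 ± 0.14), and these 2 genes were the members that held in each fit without 1 library. Of 21 genes for Rubisco and the Calvin cycle, 6 fell (28.6%) and 1 rose (4.76%), with a median of -0.19. GAPA-2 [AT1G12900], a glyceraldehyde-phosphate dehydrogenase, went from 546, 575 and 698 FPKM to 383, 453 and 496 FPKM (-0.43 ± 0.08). It was the 1 call of the list that held in each fit. This list had 1 fall without wild type Pep1 replicate 3 or irr water replicate 2. Photorespiration genes gave 0 calls by limma among 10 tested, with 0 rises and 2 falls at an unadjusted p under 0.05.

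Some markers of the shoot fell as well. Of 19 shoot marker genes, 6 fell (31.6%, beside 5.58% over all genes tested) and 0 rose (0 also at an unadjusted p under 0.05). The median was -0.24, and 17 of 19 lay below 0. All 20 shoot markers and all 26 root markers in the table had reads in at least 1 library. Their summed FPKM was 468 to 575 with water and 381 to 409 with Pep1 in wild type, and 396 to 508 and 310 to 407 in irr. The called markers named here act in the epidermis and its stomata, as do many other members of the list. This theme therefore follows from the choice of the list. CER1 [AT1G02205], an enzyme of wax alkane synthesis, went from 1.51, 2.64 and 5.34 FPKM to 0.0212, 0.177 and 0.311 FPKM without overlap (-1.67 ± 0.18, limma adjusted p = 0.000447). GL2 [AT1G79840], a regulator of epidermal cell fate, went from 4.63, 5.99 and 6.91 FPKM to 2.16, 2.73 and 3.36 FPKM without overlap, a modest shared fall (-0.89 ± 0.11), and STOMAGEN [AT4G12970], a peptide that promotes stomata, from 6.99, 12.7 and 16.2 FPKM to 3.18, 5.53 and 7.01 FPKM (-1.12 ± 0.18). Root markers gave 0 calls by limma among 14 tested, with 1 rise and 0 falls at an unadjusted p under 0.05. Their median was 0.51 in wild type and -0.52 in irr, with 4 of the 14 genes of the same sign in both, and this difference of the list between genotypes was not tested. The summed FPKM of the root markers was 588 to 917 with water and 1007 to 1128 with Pep1 in wild type, and 442 to 746 and 468 to 550 in irr. PYK10 [AT3G09260] alone averaged 582 FPKM over the 12 libraries, and the next highest member, PHT1;1 [AT5G43350], 43.0 FPKM. These sums therefore mostly follow 1 gene. The share of root and shoot tissue in each sample was not measured, and its part in the falls of photosynthesis and growth genes was not tested. Genes of seed and pollen, tissues that seedlings should lack, summed to between 2.05 and 10.5 FPKM in any library.

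Protein folding in the endoplasmic reticulum, on which secreted proteins rely, gave 0 calls over all 12 libraries. All 27 tested genes lay above 0, beside 54.1% of all genes tested, with a median of 0.37. Of the 27, 0 passed limma's adjusted threshold, with 10 rises and 0 falls at an unadjusted p under 0.05. Their summed FPKM was 477 to 521 with water and 543 to 680 with Pep1 in wild type, and 521 to 774 and 577 to 1751 in irr, where the treatments overlap. The count of rises depended on single libraries, with 11 of 27 without irr Pep1 replicate 3 and 1 without irr Pep1 replicate 2, and it was 3 with library quality weights.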

How the data were processed

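Messenger RNA was sequenced from 12 libraries of whole Arabidopsis seedlings, as paired ends with 20 M raw reads stated per sample, per the labels' protocols. The authors deposited 1 table of FPKM values for 32846 genes, with 1 column per library. What aligner, counter, genome build, annotation or filters they used is not given in the sources used here. No coordinates or sequences are printed for that reason. Gene names come from the TAIR10.1 reference, which matched 31912 identifiers.

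The 18177 genes that reached 1 FPKM in 3 or more of the 12 libraries were tested. In R 4.3.3, limma 3.58.1 was run on log2(FPKM + 1) with terms for genotype and treatment, with 9 residual degrees of freedom and with the variance trend on. A second fit with 1 mean per group, with 8 residual degrees of freedom, gave the effect in each genotype and their difference. Two-sided p-values were adjusted by Benjamini and Hochberg's method across the tested genes, and 0.05 was the threshold. All log2 differences are Pep1 minus water on the log2(FPKM + 1) scale ± SE, with n = 6 per treatment, and understate changes of low genes. The fit was tested on simulated data.

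Depth was recovered from whole-number steps in the FPKM values of genes with few reads. Of 7624 such genes 47.2% came out whole within 0.05 in all 12 libraries, against 0.62% under wrong totals. Its unit, a read or a read pair, is not known, and it sets counting error only. No count test was run, since the values are FPKM.

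The members, gene lists and families were chosen with earlier results of these data known. Of 775 list entries 705 were matched to a gene, and the rest were ambiguous, unmatched, repeated or belonged to another gene. Named genes are up to 8 rises and 8 falls of the largest size that averaged 2 FPKM or more without overlap within a genotype, up to 10 modest shared rises and 10 falls with the smallest p that averaged 5 FPKM or more, up to 4 called members per list, the 5 called genes with the smallest p for a genotype difference, and AT3G23900. Only part of these genes are printed, 1 is not reported here, and further members are named where they held in each fit without 1 library. Ranges in the text are the lowest, median and highest library. The alternatives were other pseudocounts, filters, scalings, covariates and variance settings, and leaving out each library.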

Additional observations from a re-analysis of the deposited data

Results flagged for a closer look

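The circadian clock list was flagged because the median over its genes lay above all water libraries in the wild-type Pep1 libraries and below all water libraries in the irr Pep1 libraries. Of the 21 genes, 12 had the same sign of effect in both genotypes. The median over its 21 tested genes of the difference from the water mean of the genotype was 0.14 to 0.19 in the 3 wild-type Pep1 libraries, against -0.11 to 0.04 with water. It was -0.13 to -0.08 in the 3 irr Pep1 libraries, against -0.06 to 0.10 with water. From the means of these library medians, Pep1 minus water in irr less that in wild type was -0.31 on the log2 scale. The median of the genes' effects was 0.12 in wild type and -0.14 in irr. The difference was not tested. In the joint comparison the list median was -0.04 and PRR5 [AT5G24470], a repressor of morning clock genes, rose by 0.49 ± 0.13 (limma adjusted p = 0.0334), a call lost in 7 of the 12 fits without 1 library, with the highest adjusted p, 0.0775, without wild type Pep1 replicate 2.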

How the results depend on the processing

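None of the 2131 called genes changed sign under any alternative in which it was tested. The filter on genes averaging 5 FPKM tested 1647 of them, and the scaling of nuclear genes 2120. The total of 2131 calls moved beyond a factor of 1.5 without the genotype term, to 1213 calls with 570 rises and 643 falls, and within wild type (630, with 387 rises and 243 falls) and irr (362, with 134 and 228), which hold fewer samples. Modest shared rises and falls were then 115 and 136 in wild type and 63 and 131 in irr. Library quality weights gave 1702 rises. Leaving out 1 library gave 1178 to 2934 calls, 636 to 1865 rises and 542 to 1200 falls. Modest shared rises then numbered 335 to 1099 and modest shared falls 426 to 884. In these fits the rule of no overlap covers fewer libraries in 1 genotype and is easier to meet. The modest shared counts are therefore not on the same footing as those from all 12 libraries. The lowest total came without irr water replicate 2 and the highest without irr Pep1 replicate 3, and without irr water replicate 3, the deepest library, it was 2338. The cause was not tested. Quantile normalization, equal library medians, pseudocounts of 0.1 and 5, a filter on genes averaging 5 FPKM, no filter, no trend and 1 mean per group gave 1724 to 2451 calls. Scaling nuclear genes to 1 total, chosen after seeing the data, gave 2020.

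Replicate numbers gave no clear pairing of the libraries. Same-numbered libraries of a genotype correlated in their deviations at -0.52 to 0.05, and differently numbered ones at -0.05 to 0.35. In wild type alone these ranges were 0.03 to 0.05 and -0.05 to 0.02. Between genotypes they were -0.13 to 0.19 and -0.24 to 0.18. With the replicate number as a block 1819 genes were called, 884 rises and 935 falls, with 386 and 545 modest and shared. Of 107 named genes called, 63 passed in each of the 24 alternatives over both genotypes in which they were tested. Some of these, such as CER1 and PAD3, were tested in 23. The planned search of promoters for motifs was not run. Counting error is largest in the shallowest library, where a single counted unit over 1 kb equals 0.0574 FPKM.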

Other observations

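Further families were grouped by the reference's product names after the data were seen, and their counts are a description beside 6.14% rises and 5.58% falls over all genes tested. Of 225 receptor-like kinases, which perceive signals at the cell surface, 21 rose and 9 fell, with a median of 0.14, and 16 of the 30 calls held in each fit without 1 library. The rises numbered 50 without irr Pep1 replicate 3 and 12 without irr water replicate 2, and the falls 4 without irr water replicate 2 and 12 without irr water replicate 3. BRI1 [AT4G39400], the receptor of brassinosteroid hormones, ran from 35.7 to 41.5 FPKM in the 6 water libraries and from 43.0 to 47.8 FPKM in the 6 Pep1 libraries. It rose by 0.24 ± 0.06 (limma adjusted p = 0.0188) with no overlap, 1 of the smaller modest shared rises. AT2G25790, a leucine-rich repeat receptor-like kinase, ran from 2.64 to 3.41 FPKM with water and from 4.07 to 5.44 FPKM with Pep1 and rose by 0.50 ± 0.09 (adjusted p = 0.00608).

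Of 89 transporters of the major facilitator group, 14 rose and 1 fell, and 7 of the 15 calls held in each fit without 1 library, with 7 rises without wild type Pep1 replicate 1. AT5G61520, of this group, ran from 7.97 to 13.1 FPKM with water and from 17.6 to 21.6 FPKM with Pep1, a modest shared rise of 0.78 ± 0.12 (limma adjusted p = 0.0025). Of 39 histone genes, whose products package DNA, 9 fell and 1 rose, with a median of -0.10, and 3 of the 10 calls held in each such fit, with 3 falls without irr water replicate 2. HIS4 [AT2G28740], a histone H4 gene, ran from 31.5 to 47.8 FPKM with water and from 24.2 to 27.8 FPKM with Pep1 and fell by 0.46 ± 0.09 on the log2 scale (adjusted p = 0.00902). Histone genes have close copies, among which the division of reads is uncertain. Of 65 translation factors 7 fell and 0 rose, with 17 falls and 0 rises at an unadjusted p under 0.05. Of these 7 falls, 2 held in each such fit, and the factors had 2 falls without irr water replicate 2 and 14 under quantile normalization.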
